A study of Homo sapiens with 8 samples.

Results

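The peptidylarginine deiminases PADI1, PADI2, PADI3 and PADI4 were examined in sorted human microglia, as 4 of the 78899 genes in the deposited count table. The members were chosen by name, and the large difference of PADI2 between the groups was known when they were chosen, so their values are given as a description without a test. Bulk RNA was sequenced from GFP-labelled microglia collected by fluorescence-activated sorting 2 weeks after plating, as 4 libraries from mono-culture and 4 from tri-culture. All cells came from the H1 line, which the labels list as human embryonic stem cells while calling the microglia iPSC-derived. Mono-cultures received IL-34 at 100 ng/mL and M-CSF at 10 ng/mL, both ligands of the receptor that keeps microglia alive, whereas tri-cultures received no exogenous cytokine. The presence of partner cells and the absence of added cytokine therefore changed together and cannot be told apart. The partner cells of the tri-culture, the sequence that drives GFP, any other transgene and the age of the cells before plating are not given in the labels used here. The labels name 4 independent batches, each with 1 library per group. Whether a batch was also a separate differentiation is not stated, so p-values measure the spread between these libraries of 1 line.

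Peptidylarginine deiminases are calcium-dependent enzymes that convert arginine residues of proteins into citrulline, which removes a positive charge. PADI2 is broadly expressed and is the main form in brain, where it has been described in astrocytes, oligodendrocytes and microglia. PADI4 is best known from granulocytes, where citrullination of histones accompanies the release of extracellular traps, while PADI1 and PADI3 act mainly in skin and hair follicle. PADI6, the remaining gene of the cluster, belongs to the oocyte and early embryo.

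The promoters are shown because 1 gene of the cluster had transcripts and the other PADI genes had none. RefSeq gave the 250 bases upstream of the start for 3 of the 4 members, on GRCh38.p14, and each is printed 5′ to 3′ on the strand of its gene. Capitals mark matches to the motifs searched on both strands, 5 in all. The GC box, bound by SP1 and related factors, was searched as GGGCGG. The TATA box, which places the start of transcription, was searched as TATAAA. The box bound by the factor NFY was searched as CCAAT. The site of AP-1, a factor of activated cells, was searched as TGANTCA, where N is any base. The site of PU.1, the myeloid factor encoded by SPI1, was searched as GAGGAAGT. The windows are chr1:17119452-17119701 on the minus strand for PADI2, chr1:17204878-17205127 on the plus strand for PADI1 and chr1:17307947-17308196 on the plus strand for PADI4.
PADI2: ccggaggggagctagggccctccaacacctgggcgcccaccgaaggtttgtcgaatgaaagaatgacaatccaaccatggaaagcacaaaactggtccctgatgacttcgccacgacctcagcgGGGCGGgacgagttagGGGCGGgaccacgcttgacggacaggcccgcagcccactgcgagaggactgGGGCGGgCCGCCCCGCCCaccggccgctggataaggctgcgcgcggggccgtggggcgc
PADI1: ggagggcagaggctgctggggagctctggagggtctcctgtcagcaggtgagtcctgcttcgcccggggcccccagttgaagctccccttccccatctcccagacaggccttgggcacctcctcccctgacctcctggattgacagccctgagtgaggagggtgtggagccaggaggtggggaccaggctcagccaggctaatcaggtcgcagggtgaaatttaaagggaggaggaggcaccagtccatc
PADI4: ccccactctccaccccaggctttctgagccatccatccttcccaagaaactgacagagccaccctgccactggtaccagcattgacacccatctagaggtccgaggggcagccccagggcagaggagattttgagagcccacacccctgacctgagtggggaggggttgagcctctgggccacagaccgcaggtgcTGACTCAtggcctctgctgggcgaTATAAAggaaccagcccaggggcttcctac

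The PADI2 window held 24 CpG dinucleotides, against 3 in each of the PADI1 and PADI4 windows and a median of 11 over 35116 promoter windows of the same length. Its observed-to-expected CpG ratio was 0.833, higher than in 73.6% of those windows. The ratio was 0.118 for PADI1 and 0.130 for PADI4, and the median over all windows was 0.558. GC content was 68.0% for PADI2, 64.0% for PADI1 and 61.2% for PADI4, against a median of 58.0%.

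The PADI2 window had 5 GC boxes, 3 on the plus strand of the gene and 2 on the other, and no match to the other motifs. A GC box was found in 42.6% of all windows, and 5 or more matches in 4.15%. The PADI4 window had TATAAA at position -30 and TGANTCA at position -54, counted from the start site, motifs found in 10.7% and 6.57% of windows. CCAAT was present in 32.01% and GAGGAAGT in 2.17% of windows, and in none of the 3 windows shown. The PADI1 window held none of the motifs searched. The 2 GC boxes on the other strand overlap by their end base, and no other matches overlap. These matches describe letters and not occupied sites.

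PADI1 (ENSG00000142623; chromosome 1, 17205126 to 17246005), PADI3 (ENSG00000142619; 17249098 to 17284233) and PADI4 (ENSG00000159339; 17308195 to 17364004), all on the plus strand, had no count in any of the 8 libraries. The libraries held 185808169 counts in total, in which 3 counts, the upper limit that a count of 0 allows, correspond to 0.0161 CPM (counts-per-million of the library total). In single libraries the same limit ran from 0.0899 to 0.176 CPM. PADI6 likewise had no count in any library. These genes were thus below detection at this depth in both culture formats, and no fold change can be given. The limits cover counting error only.

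PADI2 (ENSG00000117115; GRCh38, chromosome 1, 17066761 to 17119435, minus strand, GENCODE 29) accounted for every PADI count in the table. The mono-culture libraries held 3, 0, 6 and 1 PADI2 counts, or 0.0970, 0, 0.180 and 0.0587 CPM in batches 1 to 4. The tri-culture libraries held 746, 1107, 1204 and 933 counts, or 33.4, 45.2, 57.9 and 53.0 CPM. All 4 tri-culture libraries lay far above all 4 mono-culture libraries, and the groups did not overlap. Mono-culture averaged 0.0839 ± 0.0754 CPM and tri-culture 47.4 ± 10.7 CPM (SD over 4 libraries, as for every ± of CPM below). Bulk RNA cannot tell a change in the number of cells that carry a transcript from a change in the transcript per cell, and this holds for each gene below.

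Summed over libraries, 10 PADI2 counts in mono-culture stood against 3990 in tri-culture, a depth-corrected ratio of 471 with a 95% exact interval of 256 to 983 that covers counting error only. Within batch 1 the ratio was 345 (118 to 1676), within batch 3 it was 322 (148 to 879) and within batch 4 it was 903 (162 to 35707). In batch 2, where mono-culture had no count, the level was at least 290.5-fold higher in tri-culture against a floor of 3 counts in that library, and the lower limit of the exact interval was 236. The intervals of the batches overlap, and the mono-culture counts of 0 to 6 set their width. The fitted log2 fold change was 8.74, with tri-culture higher in 4 of 4 batches. Leaving out 1 library at a time gave 8.45 to 9.38, the highest value coming without mono-culture library 3, which held 6 of the 10 mono-culture counts. On log2 of the deposited signal plus 0.5, a scale that understates the change of low values, the difference was 5.62 ± 0.18 (SE).

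**Figure D1:**
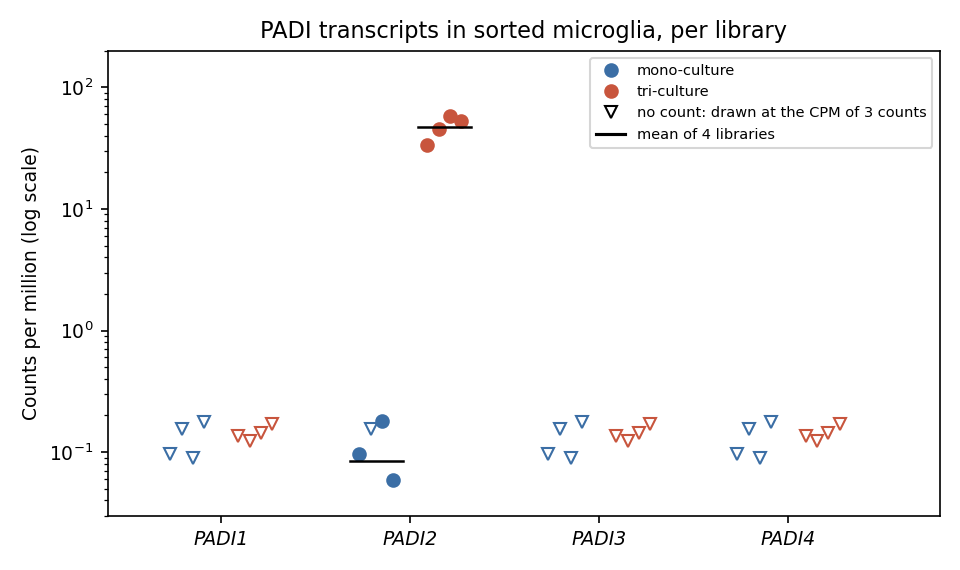
CPM of PADI1 to PADI4 in each library on a log axis, with mono-culture in blue, tri-culture in red and a line at the mean of 4 libraries; open triangles stand at the CPM of 3 counts where a library had no count. Only PADI2 has filled points, and its tri-culture libraries lie at 33.4 to 57.9 CPM against 0 to 0.180 CPM in mono-culture.

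Of the 4 members, 1 passed the filter on low counts, and it passed through its tri-culture libraries. Among the 16249 genes tested, 26.9% were called at an adjusted p under 0.05, with 13.9% higher and 13.0% lower in tri-culture, and nothing is read from the count of members against that share. By log2 fold change PADI2 ranked 58th of all tested genes, and 29th of the 10793 with a tri-culture mean of at least 5 CPM. A combination of 10 or fewer mono-culture counts with a tri-culture mean of at least 10 CPM was held by 20 tested genes, or 0.123%. The list of genes above it in that order included the astrocyte genes GFAP and AQP4 and the dendritic cell genes FCER1A and CD207.

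On the length-corrected scale of the authors' second table (a signal that the authors name TPM), PADI2 was listed at 0.061, 0, 0.105 and 0.035 in mono-culture and at 20.12, 26.845, 32.472 and 28.265 in tri-culture. Its tri-culture signal exceeded that of 77.6%, 83.4%, 87.1% and 86.3% of the genes listed above 0 in libraries 1 to 4. The mean signal in tri-culture was 26.9 ± 5.13 for PADI2 (SD, n = 4). On that scale P2RY12, a purinergic receptor typical of microglia, stood at 85.7 ± 21.0, GFAP, the intermediate filament of astrocytes, at 53.8 ± 26.2 and AQP4, the astrocyte water channel, at 14.1 ± 6.44. By their means the order was P2RY12, GFAP, PADI2 and AQP4, and the mean of PADI2 lay about 1 SD of GFAP below that of GFAP.

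Sequence shared with other genes touched PADI2 little. None of the 50-base stretches of its transcripts occurred in another PADI gene, and 17 of 5977 (0.284%) occurred in transcripts of any other gene. No annotated gene overlapped PADI2 in GENCODE 29.

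The 5 PADI genes span 335 kb, and 37 other annotated genes lie within 500 kb of that span. Of these neighbours 19 had a count and 8 were tested, against a share of 26.9% called among all tested genes. Of the 8, 1 was called, in the direction opposite to PADI2. That gene was ARHGEF10L, a guanine nucleotide exchange factor, which fell from 55.6 ± 2.95 to 30.9 ± 6.96 CPM. Its log2 fold change was -0.96 ± 0.14 (adjusted p = 0.000185, edgeR's quasi-likelihood test with Benjamini-Hochberg adjustment). Each ± of an edgeR log2 fold change is the change divided by the square root of that test's F statistic. It is an approximate SE that restates the test result. SDHB, the iron-sulfur subunit of succinate dehydrogenase, ends 12.6 kb from PADI2 and had 70.7 ± 1.41 CPM in mono-culture and 67.1 ± 16.7 in tri-culture (adjusted p = 0.568).

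ATP13A2, a lysosomal polyamine transporter named here after its values were seen, had 29.2 ± 3.17 and 22.3 ± 6.01 CPM (adjusted p = 0.0584). It passed with the batches as a replicate block (adjusted p = 0.0177), with DESeq2 (0.0413), with no filter on low counts (0.0123), and without tri-culture library 1 (0.0404) or library 4 (0.0326), so 2 neighbours were called under those settings. RCC2, beside PADI6 at the other end of the cluster and also named afterwards, had 174 ± 20.1 and 199 ± 24.5 CPM (adjusted p = 0.608). In the 85.7 kb between PADI2 and PADI1, the non-coding genes LINC02783 and ENSG00000282843 had no count. No tested neighbour was called higher in tri-culture under any alternative run.

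**Figure D2:**
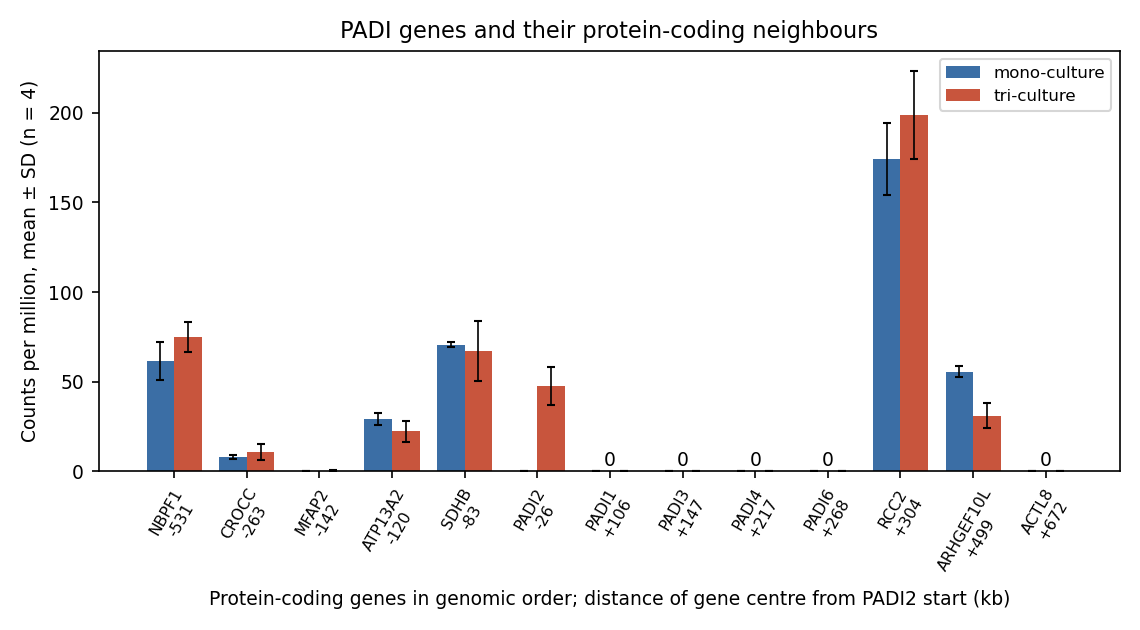
Mean CPM with SD (n = 4) of the PADI genes and the protein-coding genes within 500 kb, in genomic order, with the distance of each gene's centre from the PADI2 start in kb. PADI2 averages 0.0839 CPM in mono-culture against 47.4 in tri-culture, SDHB on one side has 70.7 and 67.1 CPM, and the other PADI genes on the other side have no count.

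Levels of genes typical of other cells are set beside PADI2 here, since they differed too. Of all 16249 tested genes 13.9% were called higher and 13.0% lower, the shares to set beside each marker count below. Of 12 astrocyte and radial glia markers 9 rose, 1 fell and 2 did not pass, with summed levels of 237 to 292 CPM in mono-culture and 792 to 891 in tri-culture. GFAP had 0.388, 0.415, 0.150 and 0.176 CPM in the mono-culture libraries and 61.7, 151, 269 and 220.2 in the tri-culture libraries, without overlap. AQP4 had no count in mono-culture and 11.0, 19.2, 38.2 and 28.7 CPM in tri-culture, and ALDH1L1 also had none in mono-culture. PADI2 followed the order of GFAP and AQP4 over the tri-culture libraries, lowest in library 1 and then rising through 2, 4 and 3. That order was shared by 7 of 12 astrocyte markers, 0 of 12 microglia markers, 0 of 10 dendritic cell markers, 2 of 7 neuron markers and 8.37% of all tested genes.

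The spread was smaller for PADI2 than for GFAP and AQP4, but not smaller than for every astrocyte marker. The highest tri-culture library exceeded the lowest 1.73-fold for PADI2, 4.36-fold for GFAP and 3.46-fold for AQP4. Among other astrocyte markers it did so 5.28-fold for SOX9, 2.56-fold for GJA1, 2.49-fold for FABP7 and only 1.13-fold for NDRG2. The ratio of PADI2 to GFAP counts accordingly was 0.542, 0.300, 0.215 and 0.241 in tri-culture libraries 1 to 4. The part of astrocyte RNA in the PADI2 level was not tested.

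Markers of microglia were high in every library. Their 12 markers summed to 4121 to 4592 CPM in mono-culture and 5007 to 6406 in tri-culture, with 3 higher, 2 lower and 7 not passing. CX3CR1, the fractalkine receptor, rose from 116 ± 29.4 to 868 ± 261 CPM, and P2RY12 from 22.5 ± 6.9997 to 74.7 ± 21.9. CD68, a lysosomal protein of macrophages, had 0.600 ± 0.202 and 0.346 ± 0.181 CPM, although other annotated genes cover 85.8% of its exon bases. P2RY12 in tri-culture libraries 1 to 4 was 53.8, 57.7, 92.5 and 94.6 CPM, so it was lowest in the same library as PADI2 but highest in a different one.

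Of 10 tested dendritic and Langerhans cell markers 7 rose and none fell, with sums of 77.5 to 104.6 CPM in mono-culture and 391 to 510.5 in tri-culture. FCER1A, a chain of the IgE receptor, had 57.6, 122, 74.5 and 109 CPM in the tri-culture libraries. The part of these genes in the PADI2 level was not tested. Oligodendrocyte markers summed to 244 to 281 and 332 to 401 CPM, with 3 of 8 tested higher and 1 lower. MOG, MOBP and OPALIN, which define mature oligodendrocytes, had no count in any library, and MAG had none in tri-culture.

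Of 13 granulocyte markers 2 were tested and both rose, with sums of 4.46 to 4.83 and 17.6 to 30.1 CPM, while MPO, LTF and LCN2 had no count in any library. Of 8 mast cell markers 2 were tested and neither passed, with sums of 1.45 to 2.99 and 2.91 to 4.77 CPM, and MS4A2, HDC, GATA2 and CMA1 had no count. Of 7 tested neuron markers 3 rose and 2 fell, with sums of 25.7 to 43.0 and 17.3 to 45.2 CPM. These sums overlap although members moved in both directions. Those that rose were GAP43, STMN2 and NEFL, with means of 0, 0 and 0.0162 CPM in mono-culture and 6.87, 2.00 and 3.06 in tri-culture. Those that fell were SYT1, from 15.1 to 4.17 CPM, and SLC17A7, from 2.08 to 0.437 CPM. No neuron marker was at 0 in all 8 libraries. The part of these cells in the PADI2 level was not tested.

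Fibroblast and mural cell markers split the tri-culture libraries, and 1 of 4 tested rose. They summed to 15.5 to 34.6 CPM in mono-culture and to 364, 18.3, 393 and 147 CPM in tri-culture libraries 1 to 4. Tri-culture library 2 lay within the mono-culture range and had no COL3A1 count. PADI2 stood at 45.2 CPM there, within its range in the other tri-culture libraries. This is 1 library, and the part of fibroblast and mural cell RNA in the PADI2 level was not tested.

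**Figure D3:**
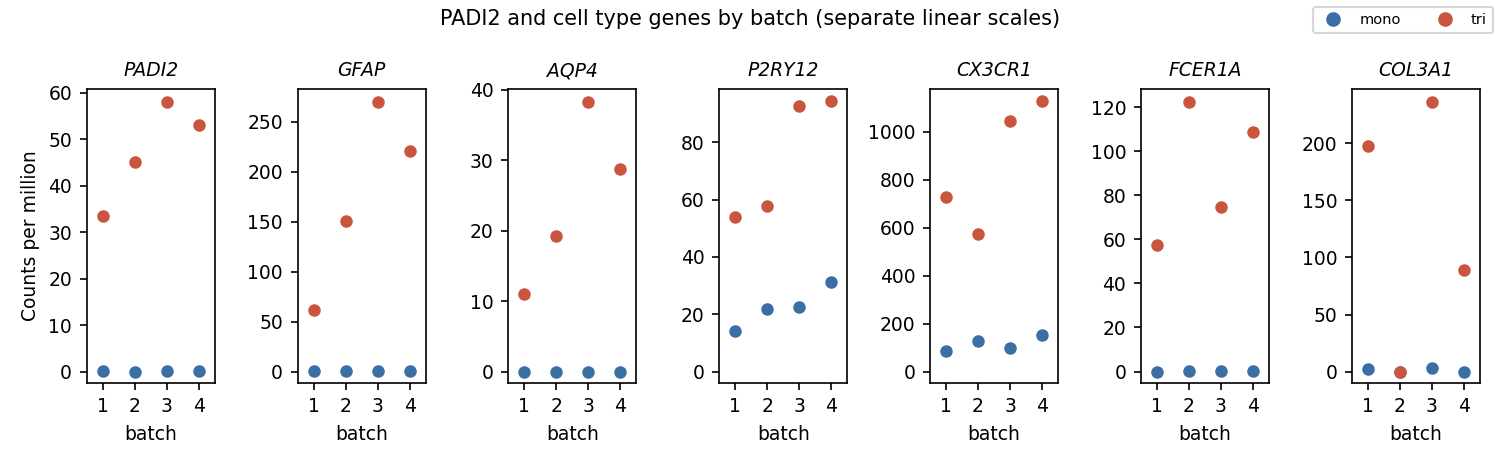
CPM of PADI2 and genes typical of astrocytes (GFAP, AQP4), microglia (P2RY12, CX3CR1), dendritic cells (FCER1A) and fibroblasts (COL3A1) in each batch, on separate linear axes, mono-culture in blue and tri-culture in red. PADI2, GFAP and AQP4 are lowest in tri-culture library 1 and highest in library 3, and COL3A1 has no count in tri-culture library 2.

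Proteins known to be citrullinated were examined next, as transcripts only, since RNA does not show the modification itself. Of 33 substrate genes 26 were tested and 11 (42.3%, against 26.9% of all tested genes) were called, 3 higher and 8 lower in tri-culture. Their median log2 fold change was -0.17, against 0.02 over all tested genes. The higher genes were GFAP, MBP and FN1, and the lower genes were VIM, ENO1, PKM, MMP9, E2F1, CXCL5, CXCL8 and CXCL12. The list mixes cytoskeletal proteins, glycolytic enzymes, chemokines and nuclear proteins, and its transcripts did not move in one direction.

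GFAP, also counted among the astrocyte markers, rose by 9.15 ± 0.51 on the log2 scale (adjusted p = 8.27e-08). VIM, the intermediate filament of macrophages and the antigen of citrullinated vimentin antibodies, had 871, 1055, 943 and 783 CPM in mono-culture and 532, 619, 603 and 593 in tri-culture. It fell from 913 ± 115 to 587 ± 37.9 CPM (log2 fold change -0.74 ± 0.13, adjusted p = 0.00102) and was lower in all 4 tri-culture libraries. MBP, myelin basic protein, whose gene also makes transcripts outside myelin, had 169, 138, 170.3 and 149.9 CPM in mono-culture and 277, 275, 232 and 220.3 in tri-culture. It rose by 0.59 ± 0.13 on the log2 scale (adjusted p = 0.00455), without overlap of the groups and without any count of MOG or MOBP beside it.

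ENO1, the glycolytic enzyme alpha-enolase, fell from 1560.5 ± 136 to 979.9 ± 48.1 CPM (log2 fold change -0.76 ± 0.13, adjusted p = 0.000859). MMP9, a secreted gelatinase, had 571, 649, 692 and 955 CPM in mono-culture and 144, 152.5, 229 and 170.0 in tri-culture. Its log2 fold change of -2.14 ± 0.18 (adjusted p = 2.28e-06) reflects groups that did not overlap. E2F1, a cell cycle transcription factor, fell from 24.1 ± 6.53 to 8.42 ± 1.96 CPM (adjusted p = 5.97e-05). CXCL5, a chemokine for neutrophils, fell from 2.30 ± 2.33 to 0.0503 ± 0.0682 CPM (adjusted p = 0.00063), and 2 of its tri-culture libraries had no count.

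Histone H3 is the substrate most often followed in citrullination studies, and the genes of its replacement form H3.3 did not pass the test. H3-3A had 288 ± 25.9 CPM in mono-culture and 353 ± 56.2 in tri-culture (adjusted p = 0.378). H3-3B had 288 ± 17.5 and 341 ± 18.4 CPM (adjusted p = 0.378). FN1, the matrix protein fibronectin, named here after its values were seen, had 4.12, 1.06, 19.3 and 7.10 CPM in tri-culture libraries 1 to 4. Its value in tri-culture library 2, where fibroblast markers were also low, overlapped the mono-culture range of 1.04 to 1.65 CPM, although the gene was called (adjusted p = 0.011).

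PADI enzymes need calcium far above resting levels, so channels, pumps and receptors that set cellular calcium were counted as well. Of 24 genes, all tested, 9 (37.5%, against 26.9% of all tested genes) were called, 2 higher and 7 lower. The median log2 fold change of the 24 was -0.07. The size of this split depended on the scaling: with library size only, and again with upper quartile factors, 4 were called higher and 5 lower. TRPV2, a cation channel of phagocytes, fell from 110.1 ± 15.4 to 47.5 ± 6.59 CPM (log2 fold change -1.31 ± 0.12, adjusted p = 4.57e-06). ORAI1, the pore of store-operated calcium entry, fell from 42.1 ± 5.10 to 28.8 ± 3.52 CPM (adjusted p = 0.00484). P2RX4, an ATP-gated channel, fell from 159 ± 20.4 to 121 ± 12.3 CPM (adjusted p = 0.00923). ATP2A3, a pump that returns calcium to the endoplasmic reticulum, rose from 28.6 ± 8.15 to 58.4 ± 17.6 CPM (adjusted p = 0.00749). P2RX7, another ATP-gated channel named here afterwards, had 55.2 ± 16.8 and 58.7 ± 11.9 CPM (adjusted p = 0.971).

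Arginine methyltransferases and their partners act on the same residues as PADI enzymes. Of 12 genes 11 were tested and none was called by edgeR (against 26.9% of all tested genes), with 1 at an unadjusted p under 0.05. DESeq2 also called none, with 1 at an unadjusted p under 0.05, and limma-trend on the deposited signal called none, with 0 at that level. The 4 smallest adjusted p belonged to the methyltransferases PRMT7 (0.126) and PRMT9 (0.195), the hydroxylase JMJD6 (0.222) and the methyltransferase CARM1 (0.268). The largest of their log2 fold changes was 0.29 ± 0.13, for PRMT7. PRMT9 was called higher when libraries were scaled by library size only (adjusted p = 0.0481). That scaling also moved the share of higher genes among all calls from 51.7% to 63.0%.

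Free citrulline and arginine are handled by a separate set of enzymes, which make citrulline from arginine or rebuild arginine from it. Of 14 genes 9 were tested and 6 (66.7%, against 26.9% of all tested genes) were called, 1 higher and 5 lower. The median log2 fold change of the 9 was -0.68. ASS1, which condenses citrulline with aspartate, had 23.8, 35.5, 53.0 and 22.7 CPM in mono-culture and 2.33, 2.123, 2.40 and 1.53 in tri-culture. Its fall of -4.08 ± 0.28 on the log2 scale (adjusted p = 5.15e-07) was seen in every batch. ARG2, the mitochondrial arginase, had 22.5, 29.98, 37.3 and 34.0 CPM in mono-culture and 2.29, 2.74, 2.79 and 1.99 in tri-culture (log2 fold change -3.74 ± 0.19, adjusted p = 4.59e-08). For both genes the lowest mono-culture library was several times the highest tri-culture library.

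SLC7A1, a cationic amino acid transporter, fell from 60.3 ± 24.3 to 23.5 ± 6.11 CPM (adjusted p = 0.000372). DDAH1, which releases free citrulline from methylated arginine, rose from 0.254 ± 0.103 to 7.88 ± 3.11 CPM (log2 fold change 4.73 ± 0.39, adjusted p = 2.07e-06). Its tri-culture libraries held 3.72, 7.39, 9.62 and 10.8 CPM, the lowest being library 1, as for PADI2. NOS1, a nitric oxide synthase that forms citrulline, had no count in any library.

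Proteins of extracellular traps and the oxidase that can start their release were included because PADI4 is tied to that process. Of 17 genes 9 were tested and 5 (55.6%, against 26.9% of all tested genes) were called, 4 higher and 1 lower. The median log2 fold change of the 9 was 0.15. S100A8 and S100A9 form the calcium-binding protein calprotectin. S100A8 rose from 0.162 ± 0.199 to 2.79 ± 1.10 CPM (adjusted p = 0.000571) and S100A9 from 10.7 ± 5.11 to 35.7 ± 15.7 CPM (adjusted p = 0.00638). S100A9 did not pass with no filter on low counts (adjusted p = 0.151). CYBB, the catalytic subunit of the phagocyte oxidase, fell from 1897 ± 342 to 1114 ± 148 CPM (adjusted p = 0.000744). NCF1, an organiser of the same oxidase, rose from 60.2 ± 10.6 to 106 ± 27.4 CPM (adjusted p = 0.0131), and its value is uncertain because near-identical copies of the gene exist. MPO and LTF, granule proteins of neutrophils, had no count, as PADI4 had none.

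Of 11 transcription factors described at promoters of PADI genes, all tested, 2 (18.2%, against 26.9% of all tested genes) were called and both fell. The median log2 fold change of the 11 was -0.12. ESR1, the estrogen receptor, fell from 2.57 ± 0.381 to 0.711 ± 0.237 CPM (adjusted p = 0.000456). HIF1A, the oxygen-regulated factor, fell from 252 ± 28.5 to 171 ± 11.96 CPM (adjusted p = 0.00123). NFYB, a subunit of the factor that binds CCAAT, had 24.3 ± 1.63 and 34.0 ± 6.14 CPM (adjusted p = 0.0792). It was called higher under library size scaling (adjusted p = 0.0188), upper quartile scaling (0.0288) and without tri-culture library 4 (0.028).

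Leaving out tri-culture library 4 raised the count of called factors from 2 to 4, with 1 higher (NFYB) and 3 lower. SP1, a factor that binds GC boxes, the motif matched in the PADI2 sequence, had 187 ± 25.8 and 185 ± 20.8 CPM (adjusted p = 0.524). It is named here for that match, after its values were seen, and its binding to PADI2 was not measured.

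Genes on the opposite strand overlap part of some genes named here, and the use of strand in counting is not given in the sources used here. The share of exon bases under another gene was 37.4% for ARG2, 24.4% for VIM, 19.9% for CARM1, 18.4% for GFAP, 18.4% for MMP9, 12.8% for TRPV2 and 10.7% for MBP. Genes on the opposite strand made up 8.56% for TRPV2 and 8.76% for MBP, and the whole share for the others listed. Reads of same-strand overlaps cannot be assigned to 1 gene. Those of opposite-strand overlaps could be assigned only if counting used strand.

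**Figure D4:**
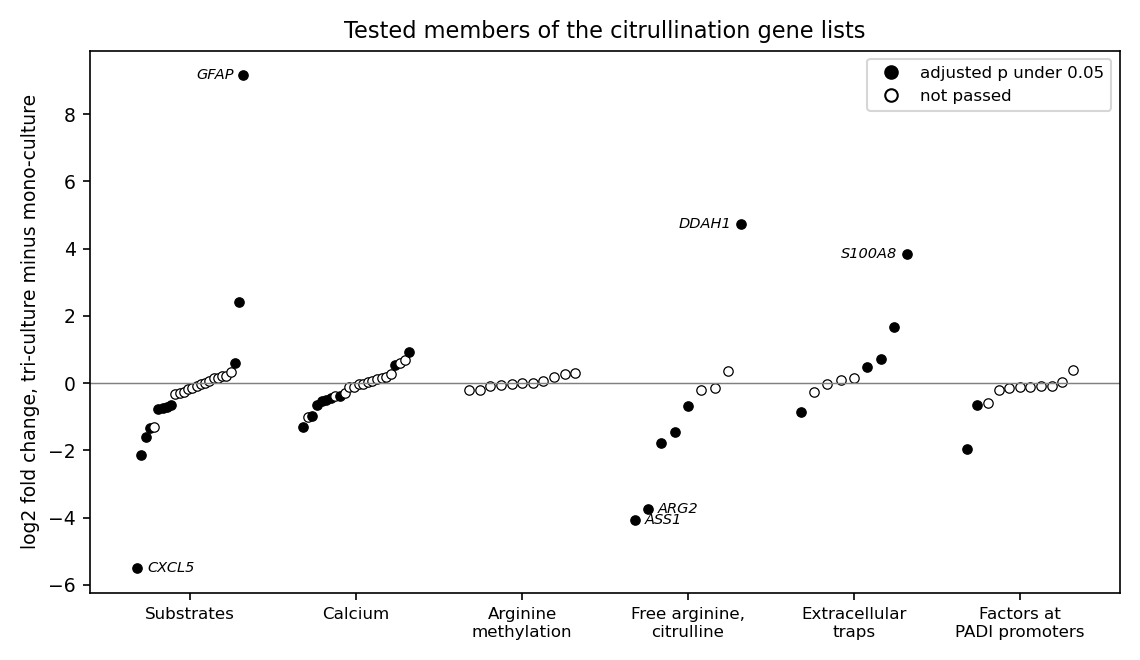
log2 fold change (tri-culture minus mono-culture) of every tested gene in the 6 lists around citrullination, ordered by value within a list; filled points had an adjusted p under 0.05. GFAP at 9.15 and DDAH1 at 4.73 lie highest, CXCL5 at -5.50 and ASS1 at -4.08 lowest, and no arginine methylation gene is filled.

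Across the 8 libraries, the genes whose log2 CPM was most correlated with that of PADI2 were METRN (Pearson's r = 0.998), CD207 (0.996), ADAM28 (0.995), NFIB (0.995) and RASAL1 (0.995). METRN encodes the secreted glial protein meteorin, CD207 is langerin of Langerhans cells, ADAM28 is a membrane metalloprotease, NFIB is a transcription factor of glial development and RASAL1 is a Ras GTPase activator. The libraries share the split between the groups, which sets most of these values, and 39 of 10997 genes compared had r above 0.99 and 347 above 0.95. METRN had 2.79 ± 0.243 CPM in mono-culture and 6.36 ± 0.546 in tri-culture, a far smaller difference than that of PADI2. CD207 had 24.2, 71.3, 57.7 and 46.9 CPM in tri-culture libraries 1 to 4, an order that PADI2 did not share.

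With the group means removed, the 5 highest correlations included those with AFF4 (0.977), KIAA1671 (0.966), NPTN-IT1 (0.959) and BTBD7 (0.958). These rest in part on the PADI2 differences between mono-culture libraries of 0 to 6 counts. None of the 5 was among those most correlated over all libraries. AFF4, a scaffold of the super elongation complex, had 179 ± 32.9 CPM in mono-culture and 157 ± 13.9 in tri-culture. The correlations are descriptions of these 8 libraries.

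**Figure D5:**
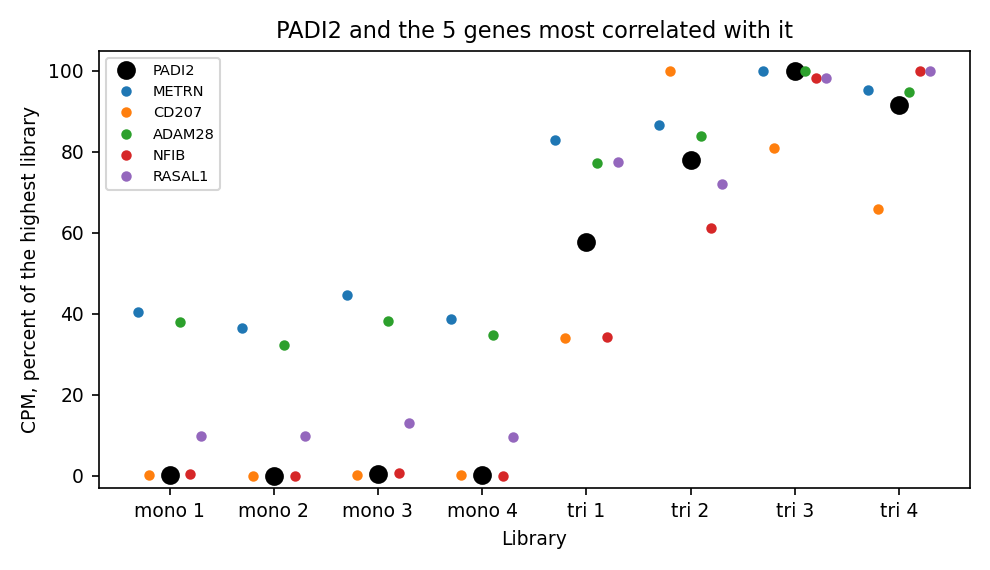
CPM in each library as a percent of that gene's highest library, for PADI2 and the 5 genes most correlated with it over the 8 libraries. PADI2, CD207 and NFIB lie near 0 in all mono-culture libraries, whereas METRN and ADAM28 are well above 0 there.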

How the data were processed

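RNA was measured in 8 libraries, 4 per group, grouped by the sample titles. The authors deposited whole-number counts per gene. The submitters' processing notes name HISAT2 2.1.0, featureCounts 2.12.3 and the build GRCh38. They name neither annotation nor use of strand, both not given in the sources used here. Another table that the authors deposited, named TPM by them, was treated as a signal of unspecified scaling, since its library totals ran from 865862.9 to 1138851. Library totals of the counts ran from 17037481 to 33363972. Of 78899 rows, 61458 matched a symbol and 39751 had a count.

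Counts were tested with edgeR 4.0.16 in R 4.3.3 (robust quasi-likelihood fit, TMM scaling, filterByExpr with a minimum count of 10 and a total of 15, group as the only term), with Benjamini-Hochberg adjustment over the 16249 tested genes and a threshold of 0.05. Alternatives were DESeq2 1.42.0, limma 3.58.1 (log2 of the signal plus 0.5), other scalings and filters, the replicate block and leaving out each library. On simulated data for this comparison with 16249 genes, 10, 33, 43 and 47 of 50 genes were recovered at 1.5, 2, 4 and 8-fold, with 13 false calls. Libraries of 1 group differed by a chi-square per degree of freedom of 9.21 to 65.1, so none was a repeat of another. The labels name shared batches, which pair the libraries of the groups. Within batches 1 to 4 the deviations of the 2 libraries correlated at 0.185, 0.126, 0.264 and 0.0796 across genes.

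The members and lists were chosen with earlier results of these data known. The text names all PADI genes, up to 4 members per list with the smallest adjusted p, VIM, MBP, GFAP, ENO1, H3-3A and H3-3B, called neighbours and SDHB, and the 5 genes most correlated with PADI2 by each of 2 measures (mean of at least 5 CPM, log2 CPM with a prior count of 2); some of these are left unreported, and others are marked as named afterwards or serve as cell type markers. Count ratios have 95% exact (Clopper-Pearson) intervals. Coordinates are from GENCODE 29 and promoters from RefSeq.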

Additional observations from a re-analysis of the deposited data

Results flagged for a closer look

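Of 80 groups of 4 libraries checked for a single library far from the others, 2 were flagged, and chance flags about 1 in 20 groups. CARM1 stood at 27.4 CPM in tri-culture library 2, apart from the 37.1 to 38.2 CPM of the other tri-culture libraries (gap of 0.896 of the range). The summed granulocyte markers stood at 4.46 CPM in mono-culture library 1, apart from 4.77 to 4.83 CPM in the other mono-culture libraries (gap of 0.851 of the range).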

How the results depend on the processing

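Under 16 alternatives neither PADI2 nor any gene under the naming rule that was called in the main run or the alternative turned its direction. Direction was not checked for a gene called in neither run. Of 31 genes under the naming rule 27 kept their side of the threshold in all alternatives. NFYB, PRMT9 and S100A9 were among the 4 that did not. The count over all genes ran from 3814 to 4994 against 4373 (3814 to 4446 when a library was left out). Substrate calls ran from 10 to 14 against 11 and calcium calls from 7 to 11 against 9, while free citrulline calls were 6 throughout. Trap calls ran from 4 to 5 against 5. Arginine methylation calls went from 0 to 1 under library size scaling. Promoter factor calls ran from 2 to 4 when a library was left out. Neighbour calls were 2 rather than 1 with no filter on low counts and with DESeq2, and ran from 1 to 2 when a library was left out. The log2 fold change of PADI2 was 5.62 with limma-trend on the deposited signal, where the pseudocount of 0.5 exceeds every mono-culture value, and ran from 8.45 to 9.38 when a library was left out. With the replicate block it was 8.75, all calls numbered 4733 and neighbour calls 2; ATP13A2 was then called, promoter factor calls numbered 3, and no call on a gene that the report names under the naming rule changed with the block. The cause of these changes was not tested. Depth limits PADI1, PADI3 and PADI4 to the upper limits given, and mono-culture PADI2 to 10 counts.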
